A study of Homo sapiens with 8 samples.

Results

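MYC and the MAX network were followed through RNA sequencing of 2 LN229 glioblastoma clones as 8 genes, MYC, MYCN, MAX, MXD1, MXD3, MXD4, MXI1 and MNT, taken by symbol from the 26364 genes of the count table. All 8 passed the filter on low counts, which left 14201 genes for testing. LN229 is a human glioblastoma cell line. One clone, Surv-GFP, carried a pcDNA3.1 plasmid encoding wild-type Survivin (BIRC5) fused to GFP, with a working nuclear export signal and a mainly cytoplasmic protein. The other, SurvNESmut-GFP, carried the same fusion with a mutated nuclear export signal, which keeps Survivin in the nucleus. Each clone had been obtained as a single G418-resistant clone. It was either left untreated or given 50 µM temozolomide (TMZ), an alkylating drug, for 48 h. That made 4 groups of 2 libraries, named a and b, and 8 libraries in all. Each Survivin form is represented by 1 clone, so a difference between the clones cannot be told apart from clonal variation, and every library came from cells with a BIRC5 transgene. The study speaks of independent biological replicates with technical duplicates, and does not say which of these a and b are. The p-values measure only the spread between these libraries, which may be technical.

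MYC and MYCN are transcription factors that bind DNA as dimers with MAX and switch on genes of growth, metabolism and ribosome production. MXD1, MXD3, MXD4 (the MXD or MAD family), MXI1 (also MXD2) and MNT bind the same partner, MAX, and the same CACGTG letters, the E-box, but recruit SIN3 and histone deacetylases and repress. MAX therefore stands at the centre, with activating and repressing partners competing for it. MYCN is known as the neural member of the MYC family, amplified in neuroblastoma and in some gliomas, whereas MXD1 is known as a gene of differentiating and resting cells and MXD3 as a member expressed in dividing cells.

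The promoter windows of 3 members are shown because they hold the letters searched for, in the member with the largest change and in 2 of the repressors. RefSeq windows (GRCh38.p14, from 250 bases before to 50 bases after a transcript start) matched 7 of the 8 members; MYC had no entry. Both strands were searched for CACGTG and for the E2F-type words TTTGGCGC, TTTCGCGC, TTTCCCGC and TTTGCCGC. Capitals mark the match, and each stretch is printed 5′ to 3′ on the strand of the gene.
MYCN, chr2:15940344-15940415, plus strand: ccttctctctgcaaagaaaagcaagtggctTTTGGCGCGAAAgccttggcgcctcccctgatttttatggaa
MXD4, chr4:2262312-2262359, minus strand: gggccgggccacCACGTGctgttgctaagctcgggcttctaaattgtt
MNT, chr17:2401218-2401283, minus strand: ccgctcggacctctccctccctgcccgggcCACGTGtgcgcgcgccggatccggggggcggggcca
In MYCN, E2F-type words were found on both strands and overlapped, starting at -176 and -172 from the transcript start. CACGTG stood at -238 in MXD4 and at -193 in MNT. None of these words was in the windows of MAX, MXD1, MXD3 or MXI1. Among all 35116 promoter windows, 7.26% held CACGTG and 3.31% an E2F-type word. Counted per gene over any of its windows, the shares were 8.77% and 3.99% of 27305 genes. Of the 7 members with an entry, 2 (28.6%) held CACGTG and 1 (14.3%) an E2F-type word. A match describes the letters of the window and is neither a shown binding site nor a cause of any change below.

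The libraries held 15826923 to 18861603 counts on genes, and the log2 CPM (read counts scaled to the total of the library) of a and b correlated across genes at 0.994 to 0.996 within each group. TMZ-exposed SurvNESmut-GFP was the least alike pair, with a chi-square per gene of 5.54 between a and b against 2.16 to 2.58 in the other groups, and its library a had the highest share of reads on no gene, 14.3% against 11.2% to 12.8% in the other 7 libraries. BIRC5, the gene the plasmid carries, stood at 1152 and 1113 CPM in untreated and 1938 and 2029 CPM in TMZ-exposed Surv-GFP, against 407 and 414 CPM and 262 and 253 CPM in SurvNESmut-GFP. The p53 target CDKN1A rose upon TMZ by 3.52 and by 1.96 on the log2 scale in the 2 clones. Of 9 glioma and neural markers, VIM, NES, CD44 and EGFR were at 48.3 CPM or more in every library, SOX2 ranged from 19.4 to 92.6, OLIG2 from 5.55 to 35.2 and S100B from 14.3 to 798 CPM, and GFAP and SOX9 were near 0, at most 0.92 and 0.17 CPM. S100B, OLIG2 and SOX2 differed between the untreated clones, with means of 777, 34.0 and 90.7 CPM in Surv-GFP and 40.6, 6.94 and 34.4 CPM in SurvNESmut-GFP (log2 differences -4.26, -2.29 and -1.40, all called). The part of such clonal differences in the member levels was not tested. Markers of immune, endothelial and epithelial cells were at most 0.87 CPM, except CD68 at 11.9 to 21.4 CPM.

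TMZ lowered MYCN in both clones and raised MYC, MAX and MXD1, while MXD3 and MXD4 fell. In Surv-GFP, 3 of the 8 genes were called higher and 3 lower, where 30.1% of all tested genes were called higher and 28.9% lower. In SurvNESmut-GFP, 3 were called higher and 5 lower, against 18.6% and 19.1% of all genes. The median size of the log2 fold change over all tested genes was 0.32 for TMZ in Surv-GFP against 0.20 in SurvNESmut-GFP. The changes of MYCN and MXD1 in Surv-GFP ranked 165 and 220 of 14201 by p. Levels are given as CPM on library sizes scaled by TMM, and calls as adjusted p under 0.05 by edgeR's quasi-likelihood test over all tested genes. In these bulk libraries, fewer cells expressing a gene and less of its RNA per cell cannot be told apart.

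**Figure D1:**
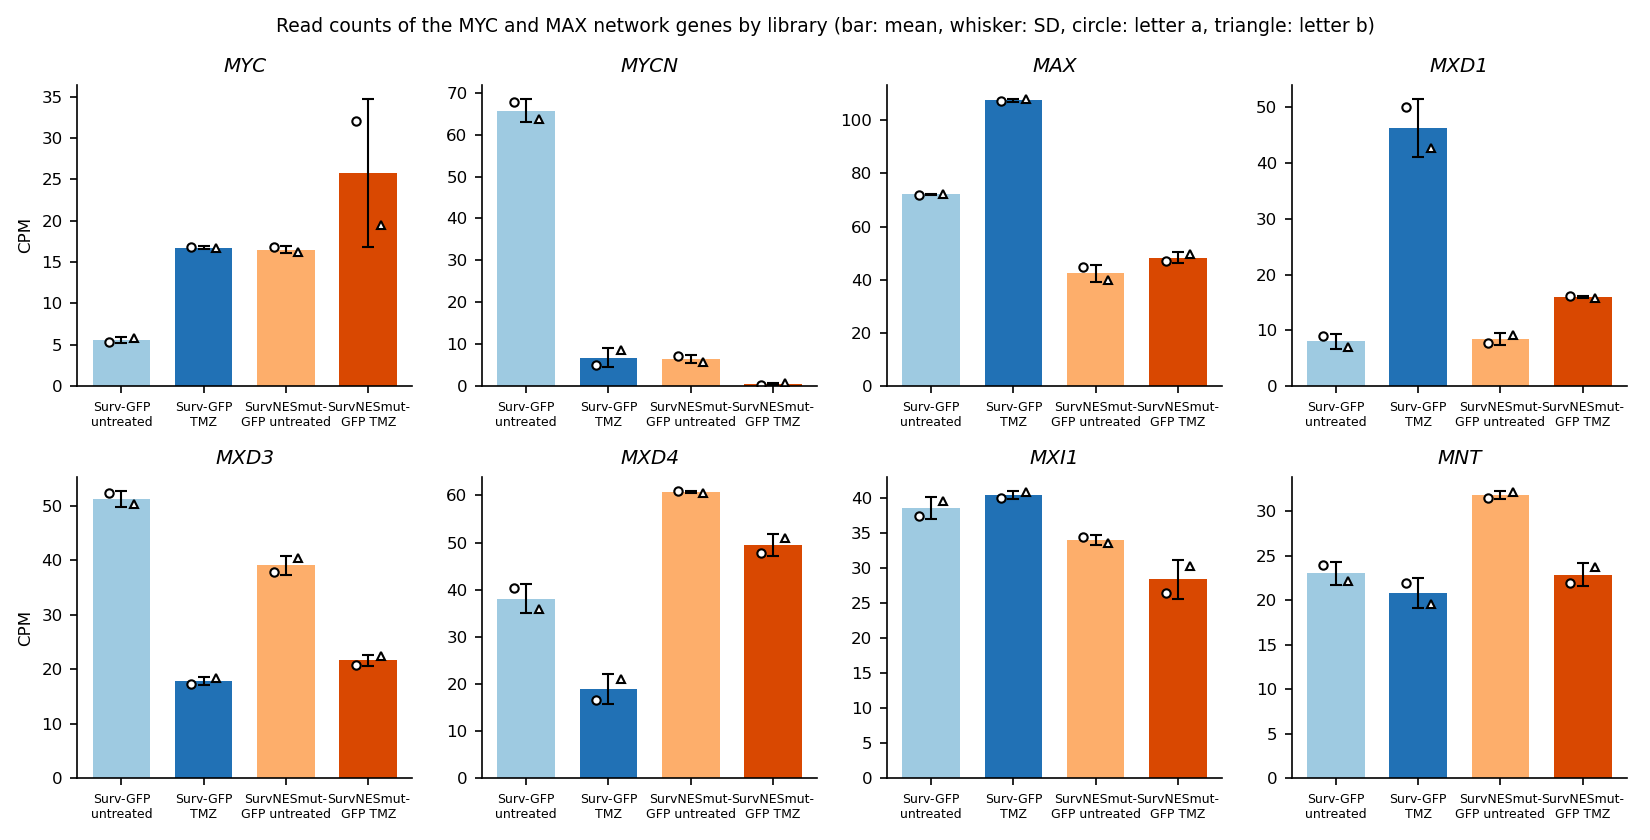
CPM (vertical axes, each from 0) of the 8 genes in the 4 groups, with bars for the mean, whiskers for the SD (n = 2), circles for library a and triangles for library b. MYCN stands at 67.7 and 63.8 CPM in untreated Surv-GFP and below 10 CPM in the other 3 groups, while MXD1 is highest in TMZ-exposed Surv-GFP at 50.0 and 42.6 CPM.

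MYCN was the most changed member. It had 1250 and 1156 counts in untreated Surv-GFP, or 67.7 and 63.8 CPM, and 96 and 148 counts upon TMZ, or 5.13 and 8.49 CPM. In SurvNESmut-GFP it started at 131 and 105 counts, 7.10 and 5.83 CPM, and dropped to 4 and 10 counts, 0.234 and 0.630 CPM. The untreated SurvNESmut-GFP libraries thus lay inside the range of the TMZ-exposed Surv-GFP libraries, and no other groups overlapped. TMZ lowered MYCN 9.71-fold in Surv-GFP (log2 fold change -3.28, SE 0.14, adjusted p = 7.1e-12) and 15-fold in SurvNESmut-GFP (log2 fold change -3.91, SE 0.37, adjusted p = 4.9e-07) at 4 and 10 counts in the 2 exposed libraries. The difference between these effects did not pass the test (-0.63, SE 0.51, 95% interval -1.71 to 0.46, adjusted p = 0.37). Without treatment MYCN was 10.1-fold lower in SurvNESmut-GFP than in Surv-GFP (adjusted p = 4.1e-12). MYCNOS, the antisense gene that shares 98 exon bases with MYCN in GENCODE v29, had 8 and 8 counts in untreated Surv-GFP and at most 1 in each of the other libraries, and was below the filter.

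MYC went the other way. It had 5.37 and 5.85 CPM in untreated Surv-GFP and 16.8 and 16.6 CPM upon TMZ, a 2.98-fold rise (log2 fold change 1.58, SE 0.20, adjusted p = 4.1e-06). Untreated SurvNESmut-GFP was already at 16.8 and 16.2 CPM, 2.94-fold above untreated Surv-GFP (adjusted p = 3.9e-06). The values of TMZ-exposed Surv-GFP and untreated SurvNESmut-GFP overlapped. In TMZ-exposed SurvNESmut-GFP the 2 libraries parted, with 32.1 CPM in a and 19.4 CPM in b. Both exceeded the untreated libraries, and the rise was called (log2 fold change 0.65, SE 0.16, adjusted p = 0.0039). Without library a it was 0.24 (adjusted p = 0.12), so that the size and the call rest on that library. Only 3.62% of tested genes lay as far apart between a and b of this group as MYC. The smaller rise in SurvNESmut-GFP was called as a difference between the clones (-0.93, SE 0.26, adjusted p = 0.010), also without that library (-1.34, adjusted p = 1.2e-07) or without library b of the group (-0.62, adjusted p = 0.0020), but it missed the threshold without library a of untreated Surv-GFP (-0.87, adjusted p = 0.0503). MYC shares no exon with another gene in GENCODE v29.

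The third family gene, MYCL, was barely detected. It had 27 and 31 counts in untreated and 9 and 4 in TMZ-exposed Surv-GFP, where it fell by 2.12 on the log2 scale (SE 0.39, adjusted p = 0.00021), and 11 to 17 counts in the 4 SurvNESmut-GFP libraries. PVT1, the long noncoding RNA gene beside MYC, rose upon TMZ as well. PVT1 had 5.47 and 6.02 CPM in untreated and 20.6 and 22.3 CPM in TMZ-exposed Surv-GFP, and 8.19 and 10.0 CPM against 19.8 and 19.98 CPM in SurvNESmut-GFP. Its log2 fold changes were 1.90 (SE 0.12, adjusted p = 8.3e-10) and 1.13 (SE 0.11, adjusted p = 7.5e-07), and its libraries a and b of TMZ-exposed SurvNESmut-GFP lay close together.

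MAX, the shared partner, changed less. Surv-GFP had 72.0 and 72.2 CPM untreated and 107.1 and 107.8 CPM upon TMZ, a 1.49-fold rise (log2 fold change 0.57, SE 0.06, adjusted p = 2.0e-07). SurvNESmut-GFP had 44.7 and 40.0 CPM untreated and 46.9 and 49.7 CPM upon TMZ. That rise of 0.19 (SE 0.06, adjusted p = 0.031) was called by edgeR but not by DESeq2 (adjusted p = 0.11), not in a fit of the 4 libraries alone (adjusted p = 0.079), nor without library b of untreated SurvNESmut-GFP (0.11, adjusted p = 0.31) or library b of TMZ-exposed SurvNESmut-GFP (0.15, adjusted p = 0.12). MAX was lower in SurvNESmut-GFP than in Surv-GFP both untreated (1.70-fold, adjusted p = 1.3e-08) and upon TMZ (2.23-fold, adjusted p = 4.6e-11), with no overlap of the libraries.

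Among the MXD repressors, MXD1 rose and MXD3 and MXD4 fell. MXD1 had 9.0 and 7.01 CPM in untreated Surv-GFP and 50.0 and 42.6 CPM upon TMZ, a 5.78-fold rise (log2 fold change 2.53, SE 0.12, adjusted p = 1.8e-11). SurvNESmut-GFP started in the same range, at 7.75 and 9.22 CPM, and reached 16.1 and 15.9 CPM (log2 fold change 0.92, SE 0.13, adjusted p = 5.1e-05). The untreated clones overlapped and their difference was not called (0.08, 95% interval -0.23 to 0.40, adjusted p = 0.65). The fold rise was 3.07 times smaller in SurvNESmut-GFP (difference -1.62, SE 0.18, adjusted p = 4.6e-06), which was the largest difference between the TMZ effects among the 8 genes.

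MXD3 had 52.2 and 50.2 CPM in untreated and 17.3 and 18.3 CPM in TMZ-exposed Surv-GFP, and 37.8 and 40.3 CPM against 20.9 and 22.4 CPM in SurvNESmut-GFP. It fell by 1.53 (SE 0.07, adjusted p = 3.9e-11) and by 0.86 (SE 0.08, adjusted p = 2.2e-07) on the log2 scale, and the fall was the weaker in SurvNESmut-GFP (difference 0.67, SE 0.11, adjusted p = 0.00014). Part of these reads is uncertain, since 22.5% of the MXD3 exon bases overlap PRELID1 on the opposite strand and 18% overlap RAB24 in GENCODE v29, and the sources do not say whether counting used strand. MXD4 had 40.3 and 35.9 CPM in untreated and 16.6 and 21.1 CPM in TMZ-exposed Surv-GFP (log2 fold change -1.02, SE 0.10, adjusted p = 1.2e-07). SurvNESmut-GFP held more of it, 60.8 and 60.5 CPM untreated and 47.9 and 51.1 CPM upon TMZ (log2 fold change -0.30, SE 0.08, adjusted p = 0.0083). That smaller fall missed the threshold without library a (adjusted p = 0.057) or library b (adjusted p = 0.051) of untreated SurvNESmut-GFP, while the difference between the effects was 0.72 (SE 0.13, adjusted p = 0.00027).

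MXI1 and MNT had the narrowest spans of group means, 0.51 and 0.61 on the log2 scale. MXI1 stood at 37.4 and 39.6 CPM in untreated and 39.9 and 40.8 CPM in TMZ-exposed Surv-GFP (log2 fold change 0.07, 95% interval -0.08 to 0.22, adjusted p = 0.44), and at 34.4 and 33.5 CPM against 26.4 and 30.3 CPM in SurvNESmut-GFP (log2 fold change -0.26, SE 0.08, adjusted p = 0.013). The latter fall missed the threshold without library a of untreated (-0.25, adjusted p = 0.083) or library a of TMZ-exposed SurvNESmut-GFP (-0.16, adjusted p = 0.17). MNT, the broadly expressed repressor of the network, had 24.0 and 22.1 CPM in untreated and 22.0 and 19.6 CPM in TMZ-exposed Surv-GFP (log2 fold change -0.15, 95% interval -0.33 to 0.04, adjusted p = 0.16). In SurvNESmut-GFP it fell from 31.5 and 32.1 CPM to 21.9 and 23.8 CPM (log2 fold change -0.48, SE 0.08, adjusted p = 0.00027). With TMZ, the 2 clones overlapped in MNT. Part of the MNT reads is uncertain as well, since 12.2% of its exon bases overlap AC006435.1 on the opposite strand in GENCODE v29.

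**Figure D2:**
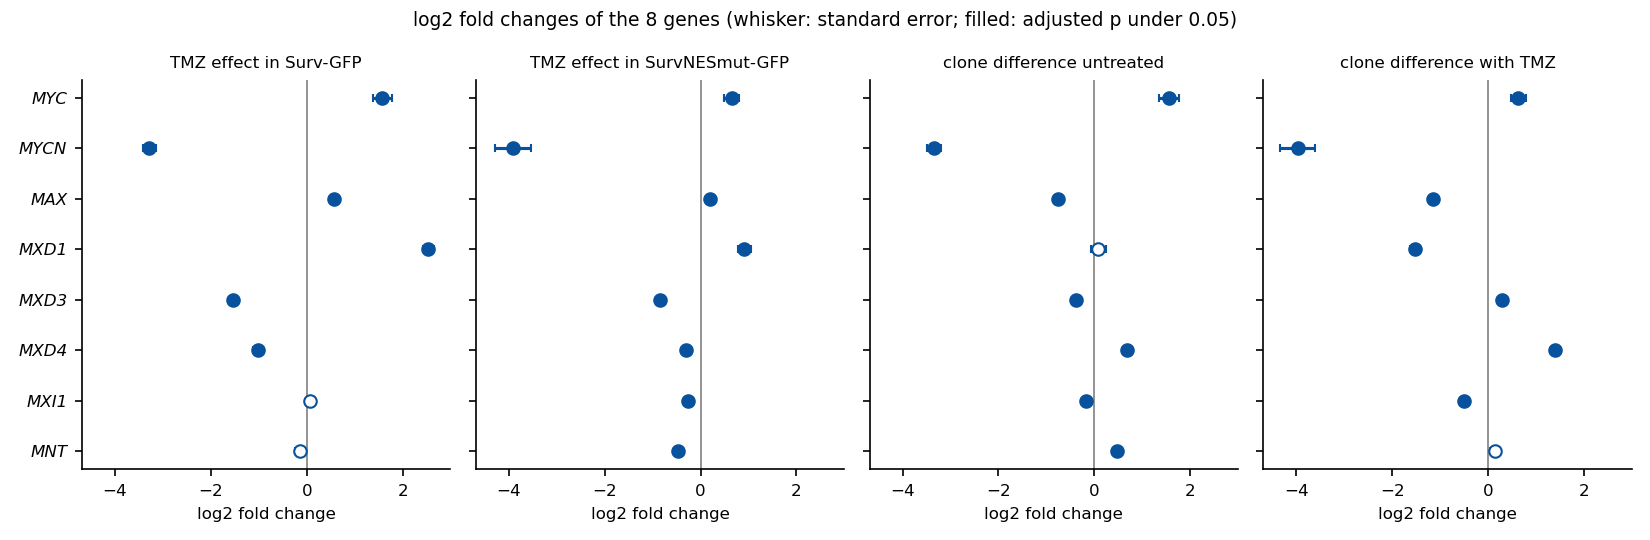
log2 fold changes (horizontal axes, shared scale) of the 8 genes for TMZ against untreated in each clone and for SurvNESmut-GFP against Surv-GFP without and with TMZ, with whiskers for the standard error and filled points for adjusted p under 0.05. MYCN lies between -3.28 and -3.97 in all 4 panels, and MXD1 moves from 0.08 between the untreated clones to -1.53 between the TMZ-exposed clones.

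The TMZ effects themselves differed between the clones for 7 of the 8 genes, 2 of them higher and 5 lower in SurvNESmut-GFP, where 16.6% and 20.2% of all tested genes were called. MXD1, MYC and MAX rose less in SurvNESmut-GFP, and MXD3 and MXD4 fell less. MAX differed by -0.39 (SE 0.09, adjusted p = 0.0021). MXI1 and MNT, which were not called in Surv-GFP, were the weakest of these calls, at -0.33 (SE 0.11, adjusted p = 0.021) and -0.33 (SE 0.12, adjusted p = 0.041). DESeq2 called neither, with adjusted p = 0.10 for MXI1 and 0.17 for MNT. The MXI1 call also ended without library a of untreated Surv-GFP, b of TMZ-exposed Surv-GFP, or a of untreated or of TMZ-exposed SurvNESmut-GFP (adjusted p up to 0.093). The MNT call ended without library b of untreated Surv-GFP, a of TMZ-exposed Surv-GFP, either untreated SurvNESmut-GFP library, or a of TMZ-exposed SurvNESmut-GFP (adjusted p up to 0.20).

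Between the untreated clones, MYC, MXD4 and MNT were higher in SurvNESmut-GFP and MYCN, MAX, MXD3 and MXI1 lower, 3 and 4 of the 8 genes against 34.7% and 29.4% of all tested genes. MXD4 differed by 0.67 (SE 0.08, adjusted p = 2.1e-06), MNT by 0.46 (SE 0.08, adjusted p = 0.00011) and MXD3 by -0.39 (SE 0.07, adjusted p = 7.9e-05). The MXI1 difference of -0.18 (adjusted p = 0.042) was not called by DESeq2 (adjusted p = 0.084) or when any 1 of the 4 untreated libraries was left out (adjusted p up to 0.24). With TMZ, 3 genes were higher and 4 lower in SurvNESmut-GFP, against 34.5% and 34.7% of all genes. MYCN differed by -3.97 (SE 0.37, adjusted p = 6.5e-08), MXD1 by -1.53 (SE 0.11, adjusted p = 1.7e-09), MXD4 by 1.39 (SE 0.09, adjusted p = 1.2e-09) and MXI1 by -0.51 (SE 0.08, adjusted p = 1.6e-05). MYC was 0.63 higher (SE 0.16, adjusted p = 0.0021), but 0.18 without library a of TMZ-exposed SurvNESmut-GFP (adjusted p = 0.18). MXD3 was 0.28 higher (SE 0.08, adjusted p = 0.0073), a call lost without library a of TMZ-exposed Surv-GFP (0.20, adjusted p = 0.11) or library b of TMZ-exposed SurvNESmut-GFP (0.20, adjusted p = 0.095). These comparisons reuse the same 8 libraries and are not independent of each other.

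Per length, the order of the members changed between groups. The following levels are CPM per kb of exon, given as means of 2 libraries. The length joins the exons of all transcripts of a gene in GENCODE v29. Which transcripts these cells used was not tested, and the order between genes depends on this length. In untreated Surv-GFP, MYCN led at 25.3, followed by MAX at 16.3, MXD3 at 9.94, MXI1 at 8.35, MXD4 at 5.40, MNT at 2.64, MYC at 1.87 and MXD1 at 1.26, and no neighbours in this order overlapped. In TMZ-exposed Surv-GFP, MAX led at 24.3, then MXI1 at 8.76, MXD1 at 7.29 and MYC at 5.58, while MXD4, MYCN and MNT could not be ordered beyond their spread, at 2.67, 2.62 and 2.38. In untreated SurvNESmut-GFP, MAX at 9.56 and MXD4 at 8.60 led, MXD3 at 7.58 and MXI1 at 7.37 overlapped, and MYC at 5.49 stood above MYCN at 2.49. In TMZ-exposed SurvNESmut-GFP, MAX at 10.9 and MYC at 8.58 overlapped, as did MYC and MXD4 at 7.01, and MYCN was last at 0.17.

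The composition of the network shifted accordingly. MYCN made up 93.1% ± 0.664 (SD, n = 2) of the summed MYC and MYCN level per kb in untreated Surv-GFP, 31.5% ± 7.81 upon TMZ, 31.1% ± 2.39 in untreated SurvNESmut-GFP and 2.22% ± 1.96 in TMZ-exposed SurvNESmut-GFP. The summed level of MYC and MYCN was 27.1 ± 0.956 CPM per kb in untreated Surv-GFP and 8.20 ± 0.866, 7.98 ± 0.496 and 8.75 ± 2.88 in the other 3 groups, which overlapped. The summed repressors were lower upon TMZ in both clones, without overlap. They went from 28.1 and 27.1 to 24.8 and 24.3 CPM per kb in Surv-GFP. In SurvNESmut-GFP they went from 28.3 and 28.8 to 21.6 and 23.4 CPM per kb. The ratio of repressor to MYC and MYCN level was 1.02 ± 0.00816 in untreated Surv-GFP and 3.01 ± 0.355 upon TMZ. It was 3.58 ± 0.270 in untreated SurvNESmut-GFP and 2.74 ± 1.05 upon TMZ, where library a gave 2.00 and library b 3.48. Within the repressors, MXD1 took 4.56% ± 0.678 in untreated and 29.7% ± 2.97 in TMZ-exposed Surv-GFP, and 4.68% ± 0.511 and 11.2% ± 0.750 in SurvNESmut-GFP. MYC stood to MAX at 0.115 ± 0.00677 and 0.230 ± 0.00314 in Surv-GFP and at 0.576 ± 0.0292 and 0.794 ± 0.307 in SurvNESmut-GFP. With 2 libraries a group, an exact permutation test of such ratios cannot reach the threshold, and they are given as a description.

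**Figure D3:**
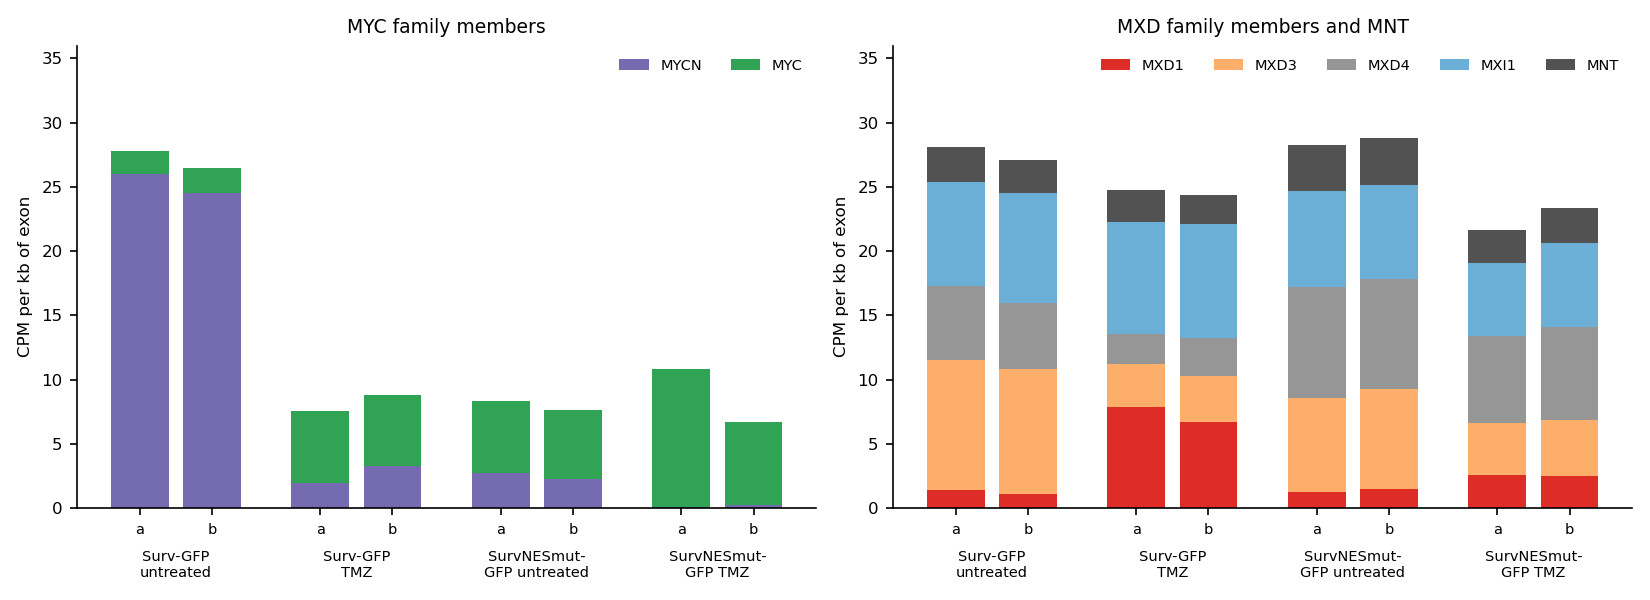
Level per kb of exon (vertical axes, CPM per kb, from 0) of MYCN and MYC (left) and of the 5 repressors (right) in each of the 8 libraries, stacked. The MYC family sum falls from 27.1 in untreated Surv-GFP to 8.20 upon TMZ, and MXD1 grows to 29.7% of the repressor sum in that group. The repressor sum lies between 21.6 and 28.8 over all libraries and is lower upon TMZ in both clones.

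The wider network held further partners of MAX and of its relative MLX. Of 6 tested genes, 2 rose and 2 fell upon TMZ in Surv-GFP, 33.3% each way where 30.1% and 28.9% of all tested genes did. In SurvNESmut-GFP 2 rose and 0 fell, against 18.6% and 19.1% of all genes. TXNIP and ARRDC4, arrestin-like genes that the MLX partner MLXIP induces when glucose is high, rose in both clones. TXNIP went from 149 and 141 CPM to 198 and 202 CPM in Surv-GFP and from 79.1 and 72.8 CPM to 153 and 184 CPM in SurvNESmut-GFP, with log2 fold changes of 0.46 (SE 0.07) and 1.15 (SE 0.07). ARRDC4 rose by 1.02 (SE 0.11) and 0.83 (SE 0.15), while MLXIP fell by 0.30 in Surv-GFP (SE 0.06, adjusted p = 0.00031). MGA, a large MAX partner, was 0.55 higher in untreated SurvNESmut-GFP than in untreated Surv-GFP (SE 0.06, adjusted p = 3.5e-07).

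Of 24 tested cofactors of the activators and repressors, 9 (37.5%) were called higher and 8 (33.3%) lower upon TMZ in Surv-GFP, near the 30.1% and 28.9% of all genes, with a median log2 fold change of -0.04. In SurvNESmut-GFP 4 (16.7%) were higher and 11 (45.8%) lower, against 18.6% and 19.1%, with a median of -0.13. DESeq2, which called fewer genes in total, called 5 in place of 9 and 2 in place of 4 higher. SAP30, a subunit of the SIN3 and deacetylase complex that MXD proteins recruit, fell by 0.87 (SE 0.09, adjusted p = 3.0e-07) and by 0.61 (SE 0.10, adjusted p = 0.00010). SIN3A, the scaffold of that complex, fell by 0.47 (SE 0.06, adjusted p = 2.4e-06) and by 0.40 (SE 0.06, adjusted p = 2.5e-05). KAT2A, a histone acetyltransferase that MYC recruits, fell by 0.54 in Surv-GFP (SE 0.07, adjusted p = 1.1e-05) and rose by 0.34 in SurvNESmut-GFP (SE 0.07, adjusted p = 0.0010), and the difference of 0.88 was called (SE 0.10, adjusted p = 5.6e-06). Other cofactors rose in Surv-GFP, among them ZBTB17 by 0.52 (SE 0.06, adjusted p = 3.2e-06) and CCNT1 by 0.32 (SE 0.05, adjusted p = 2.0e-05).

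Of 21 tested genes that set the stability of MYC proteins, 5 (23.8%) rose and 9 (42.9%) fell upon TMZ in Surv-GFP, against 30.1% and 28.9% of all genes, and 3 (14.3%) rose and 7 (33.3%) fell in SurvNESmut-GFP, against 18.6% and 19.1%. FBXW7, the ubiquitin ligase subunit that marks MYC and MYCN for degradation, rose by 0.64 (SE 0.06, adjusted p = 1.0e-07) and by 0.56 (SE 0.08, adjusted p = 3.0e-05). It had 44.5 and 43.0 CPM in untreated Surv-GFP against 16.9 and 17 CPM in untreated SurvNESmut-GFP, a log2 difference of -1.37 (SE 0.07, adjusted p = 5.9e-11). USP36, a nucleolar deubiquitinase that protects MYC, rose by 1.26 in Surv-GFP (SE 0.05, adjusted p = 5.1e-12) and by 0.37 in SurvNESmut-GFP (SE 0.05, adjusted p = 5.4e-05). AURKA, a mitotic kinase that binds and shields MYCN, fell by 1.55 (SE 0.06, adjusted p = 1.4e-12) and by 1.59 (SE 0.05, adjusted p = 3.1e-12), and PLK1, another mitotic kinase, fell by 2.53 (SE 0.06, adjusted p = 8.3e-15) and by 1.98 (SE 0.06, adjusted p = 8.0e-13). AURKA and PLK1 are also genes of dividing cells.

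Of 30 nucleolar and ribosome biogenesis genes known to be induced by MYC, 17 (56.7%) rose and 4 (13.3%) fell upon TMZ in Surv-GFP, against 30.1% and 28.9% of all genes, with a median log2 fold change of 0.29 where the median of all tested genes was 0. In SurvNESmut-GFP 8 (26.7%) rose and 3 (10%) fell, against 18.6% and 19.1%, with a median of 0.12. RRP12, a ribosomal RNA processing factor, rose by 1.54 (SE 0.07, adjusted p = 2.0e-11) and 0.51 (SE 0.07, adjusted p = 2.5e-05), whereas the abundant nucleolar protein gene NPM1 fell by 0.30 (SE 0.05, adjusted p = 4.0e-05) and by 0.39 (SE 0.05, adjusted p = 8.4e-06). Of 29 other MYC-induced genes, 9 (31%) rose and 10 (34.5%) fell in Surv-GFP, near the shares of all genes, with a median of -0.02, and 12 (41.4%) rose and 4 (13.8%) fell in SurvNESmut-GFP, with a median of 0.10. SHMT2, a mitochondrial enzyme of serine metabolism, rose from 204 and 211 CPM to 565 and 575 CPM in Surv-GFP and from 203 and 195 CPM to 423 and 382 CPM in SurvNESmut-GFP (log2 fold changes 1.46 and 1.02). LDHA, the lactate dehydrogenase subunit, fell by 0.85 (SE 0.05, adjusted p = 1.8e-10) and by 0.58 (SE 0.05, adjusted p = 7.3e-08). ODC1, the rate-limiting enzyme of polyamine synthesis, rose by 1.33 in Surv-GFP (SE 0.07, adjusted p = 4.5e-11) and rose less in SurvNESmut-GFP (difference -0.85, SE 0.09, adjusted p = 3.1e-06). CACGTG was in a promoter window of 45.8% of the 24 nucleolar genes with an entry and 53.8% of the 26 others with one, against 8.77% of all 27305 genes. It was also in a window of 28.6% of the 7 further MAX and MLX network genes and 26.7% of the 15 proliferation genes with an entry. The cofactors, stability regulators and MYC-repressed genes had entries for 70.8%, 76.2% and 73.3% of their genes, so their shares cover only part of each list. CACGTG was in a window of 23.5% of 17, 25% of 16 and 18.2% of 11 of them, also above the share of all genes. It was in 0 of the 4 neighbours and partners in name of MYC and MYCN with an entry.

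Of 14 tested genes known to be repressed by MYC, 4 (28.6%) rose and 6 (42.9%) fell in Surv-GFP, against 30.1% and 28.9% of all genes, and 4 (28.6%) rose and 5 (35.7%) fell in SurvNESmut-GFP, against 18.6% and 19.1%. The largest rises, of CDKN1A, the p21 inhibitor of cell cycle kinases, by 3.52 and 1.96 and of GADD45A, a DNA damage gene, by 3.82 and 1.53, were in genes that p53 also induces. CDKN1C, another kinase inhibitor, fell by 2.05 in Surv-GFP (SE 0.18, adjusted p = 4.9e-08).

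Proliferation genes changed alongside the network. Of 18, 0 rose and 17 (94.4%) fell upon TMZ in Surv-GFP (median log2 fold change -0.93), against 28.9% of all genes lower, and 0 rose and 14 (77.8%) fell in SurvNESmut-GFP (median -0.45), against 19.1%. Their TMZ effect was called higher in SurvNESmut-GFP for 15 of the 18, against 16.6% of all genes. Between the untreated clones 14 were higher in SurvNESmut-GFP and 1, MCM3, was lower (log2 difference -0.37, SE 0.05, adjusted p = 2.9e-06), against 34.7% and 29.4% of all genes. With TMZ all 18 were higher there, against 34.5%. The part of this change in the levels of MYCN, MXD1 and MXD3 was not tested.

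**Figure D4:**
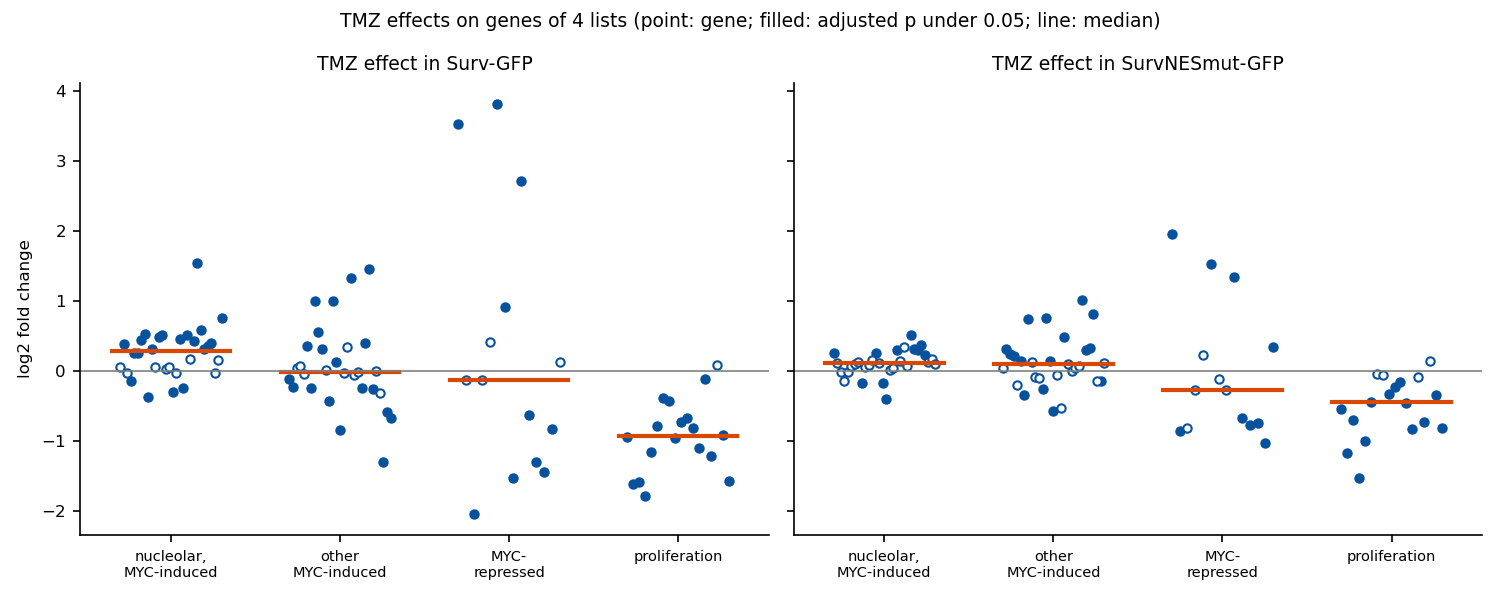
log2 fold changes upon TMZ (vertical axis) of genes in 4 lists for Surv-GFP (left) and SurvNESmut-GFP (right), with a point per gene, filled where adjusted p was under 0.05, and a line at the median. Nucleolar genes centre at 0.29 and 0.12, the other MYC-induced genes at -0.02 and 0.10, and proliferation genes at -0.93 and -0.45.

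The genes whose log2 CPM followed each member most closely over the 8 libraries were found by Pearson's r among 4515 tested genes, or 4516 for MXI1 and MNT, whose group means spanned at least 1 on the log2 scale. The 8 libraries form 4 pairs, so these values mainly describe differences between 4 groups and carry no p. Spearman's rho, which uses ranks only, ran from 0.81 to 1 over the pairs named below. It was lowest, at 0.81, for MYC with MAP1B and for MNT with PLD1. Closest to MYCN were DPY19L1, YPEL2 and SREBF1, all with r = 0.997. MYC was followed by MAP1B (r = 0.994), AXL (r = 0.990) and MSANTD3 (r = 0.989). MAX was followed by DNAJC12 (r = 0.999), RNF19A (r = 0.996) and CAMK2D (r = 0.995). MXD1 was followed by FAM83G (r = 0.993), PMAIP1 (r = 0.992), which encodes the p53-induced protein NOXA, and the Notch ligand gene JAG1 (r = 0.992). MXD3 was followed by SNX1 (r = 0.992), HMGB2 (r = 0.987) and TROAP (r = 0.986). OIP5 (r = 0.995), UNC93B1 (r = 0.995) and RASSF2 (r = 0.993) were nearest to MXD4, PROX1 (r = 0.986), NEK3 (r = 0.984) and MAG (r = 0.981) to MXI1, and CDKN3 (r = 0.979), PLD1 (r = 0.974) and TIMP3 (r = 0.967) to MNT.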

How the data were processed

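RNA of 8 libraries was sequenced on the Illumina platform. The submitters' processing notes name STAR 2.5.0b, Cufflinks 2.2.1 and edgeR; no source used here names the counting program, the strand setting or the build. The authors deposited whole-number counts per gene symbol, without normalization, and 5 tables of their own comparisons (fold changes and p-values), which were not used. The 2 rows that name no gene, reads on no feature (11.2% to 14.3%) and ambiguous reads (1.19% to 1.28%), were left out.

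Groups came from the sample labels. Counts were scaled by TMM and filtered with filterByExpr, and 1 model of the 4 group means was fitted in edgeR 4.0.16 (R 4.3.3, limma 3.58.1; quasi-likelihood F test, legacy method, two-sided), with Benjamini-Hochberg adjustment over 14201 genes for each of 5 contrasts. SE is the log2 fold change divided by the square root of F. Alternatives were DESeq2 1.42.0, other scalings and filters, a replicate term, fits of 4 libraries and each library left out. The member genes and the gene lists were chosen with earlier results of these data known. Named list genes beyond the 8 were picked from those that met a rule, and not all of those are named. For each list, contrast and direction, the rule kept the 2 with the smallest p among those called without overlap of the groups. For the difference of TMZ effects, it kept them among those called. SIN3A and KAT2A in Surv-GFP are given beside their named values in the other clone, and MYCNOS for its overlap with MYCN. On simulated counts for 14201 genes, 182 of 200 changed genes were recovered for the TMZ effect in Surv-GFP, with 7 false calls. For the difference of TMZ effects 159 were recovered, with 3 false calls, and the untreated clone difference gave 10 false calls. All changed genes had the same size of change and all genes the same spread, so smaller changes and the less alike pair were not covered. Lengths and overlaps came from GENCODE v29 and promoter windows from RefSeq.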

Additional observations from a re-analysis of the deposited data

Results flagged for a closer look

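For 7 of the 8 genes, the TMZ effect differed between the clones by the interaction test in edgeR (effect in SurvNESmut-GFP minus effect in Surv-GFP, log2 scale, 2 libraries a group). Of all tested genes, 16.6% were called higher and 20.2% lower by this test. The differences were -1.62 for MXD1, -0.93 for MYC, -0.39 for MAX, -0.33 for MXI1 and -0.33 for MNT, and 0.72 for MXD4 and 0.67 for MXD3. DESeq2 called 5 of the 7, without MXI1 and MNT. The MYC difference missed the threshold when library a of untreated Surv-GFP was left out. MXD1, MYC and MAX were called higher upon TMZ in both clones, with smaller values in SurvNESmut-GFP. There the MYC call was lost without library a of the exposed cells (0.24, adjusted p = 0.12), and the MAX call with DESeq2 (adjusted p = 0.11), in the fit of 4 libraries (adjusted p = 0.079) and without either library b. MXD3 and MXD4 fell in both clones and fell less in SurvNESmut-GFP. MXI1 and MNT were called lower upon TMZ in SurvNESmut-GFP and were not called in Surv-GFP. MYCN, with a difference of -0.63, was not called (adjusted p = 0.37).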

How the results depend on the processing

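Over 632 refits of the 8 genes (8 genes, 5 contrasts and each alternative), 597 kept their side of the threshold, 35 lost the call and 0 reversed a call. A change of sign without a call was not counted as reversed. The MXD1 difference between the untreated clones, not called, ran from -0.08 to 0.28. The log2 fold changes of MYCN, MXD1 and MXD3 upon TMZ were called under every alternative in both clones, ranging from -3.71 to -2.95, 2.37 to 2.73 and -1.60 to -1.48 in Surv-GFP and from -4.75 to -3.34, 0.79 to 1.04 and -0.90 to -0.80 in SurvNESmut-GFP. Dividing by length matters for the ratio of repressor to MYC and MYCN level: without it, the ratio was 2.23 and 6.15 in untreated and TMZ-exposed Surv-GFP and 7.60 and 5.64 in SurvNESmut-GFP, with the same order of the groups. DESeq2 moved some list counts by over 1.5 times. It also called fewer genes in total. These were 6939 in place of 8371 for TMZ in Surv-GFP, 3936 in place of 5367 in SurvNESmut-GFP and 3835 in place of 5226 for their difference. Upon TMZ it called 5 cofactors higher in place of 9 in Surv-GFP and 2 in place of 4 in SurvNESmut-GFP. For the difference of TMZ effects, edgeR called 11 (36.7%) of 30 nucleolar genes lower and 1 (3.33%) higher, against 20.2% and 16.6% of all genes. DESeq2 called 4 lower and 2 higher. It called 2 cofactors lower in place of 5 (20.8%) and 2 MYC-repressed genes higher in place of 4 (28.6%). In the extended network, 1 gene was called higher in place of 3 (50%). The cause was not tested. The MNT difference of TMZ effects also missed the threshold with DESeq2's size factors, library size alone or either other filter (adjusted p 0.052 to 0.089), and the MXI1 difference with library size alone (adjusted p = 0.052).

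The letters a and b showed no clear pairing of the libraries. The a minus b differences of the groups correlated across genes at -0.067 to 0.083, highest between the 2 TMZ-exposed groups. Counting noise lowers such correlations, so they do not settle whether the letters pair the libraries. With the letter as a replicate block, the MNT difference of TMZ effects was -0.33 with adjusted p = 0.051 and was no longer called; no other call of the 8 genes changed, and the counts of genes called were 8203, 5179, 5074, 8971 and 9722, against 8371, 5367, 5226, 9106 and 9830 without it, for the TMZ effects in Surv-GFP and SurvNESmut-GFP, their difference, and the clone differences without and with TMZ. The 4 and 10 reads of MYCN in TMZ-exposed SurvNESmut-GFP limit how closely its fall there can be sized.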
